A study of Mus musculus with 6 samples.

Results

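Whole kidneys of newborn Ahnak KO mice were compared with kidneys of WT mice by bulk RNA-seq at PN1, the first day after birth. The comparison used 4 of the 6 libraries in the series, 2 from Ahnak KO kidneys and 2 from WT kidneys. The Ahnak KO mice carry a germline disruption of exon 5 of Ahnak, so the gene is altered in every cell of the animal, and the strain of both groups is not given in the sources used here. The labels name no further allele and no drug treatment, but their protocol text partly describes another tissue, the periodontal ligament of premolars, so tissue and genotype were taken from the titles and source names. The methods state 2 to 4 kidneys or ureters for each RNA extraction and 2 biological replicates, but not how many animals went into a given library, so the p-values measure only the spread between these libraries. A gene was called separated when it had at least 1 CPM (counts scaled to library size) in all 4 libraries and both Ahnak KO libraries lay on one side of both WT libraries. Of 24532 genes in the table, 13829 had at least 1 CPM in all 4 libraries, and 3512 of these were separated.

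Ahnak encodes a giant scaffold protein that sits beneath the plasma membrane with S100a10 and annexin 2 and that binds regulators of calcium entry and of phospholipase and SMAD signalling. At birth the mouse kidney is still making nephrons. Progenitors that express Six2 and Cited1 cap the tips of the branching ureteric bud, which secretes WNT ligands and responds to GDNF through the receptor RET. The progenitors pass through vesicle stages patterned by Lhx1, Notch and FGF signals before podocytes and tubule segments mature, among a stroma and a vessel network that grow with them.

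The 4 libraries held 55744703 to 66095616 estimated counts, and 3 counts stood for 0.0450 to 0.0543 CPM. Counting error alone sets that limit. All values below are CPM scaled with TMM factors, which lay between 0.992 and 1.01, and are given for replicates 1 and 2 of each genotype in that order. Libraries of one genotype were not closer to each other than to most libraries of the other genotype. The median gene differed by 0.18 on the log2 scale between the Ahnak KO libraries and by 0.17 between the WT libraries, while Ahnak KO replicate 2 and WT replicate 1 differed by 0.11, the smallest difference of the 6 pairs. Xist, the RNA that coats the inactive X chromosome, stood at 3110.1 CPM in Ahnak KO replicate 1 against 0.37983 to 0.421 CPM in the others, so sex is not balanced between the genotypes. That library also had 39 genes more than 4-fold below each of the others, 18 of them at 0, where the other 3 had 5 to 10 such genes. The tissue label held: the nephron progenitor, podocyte, tubule, collecting duct, stromal and endothelial markers were present in every library. Of genes that define other tissues, Cyp11b2 of the adrenal cortex, Elovl3 of brown fat and Myod1 of skeletal muscle were at 0 in all 4 libraries. Other members of those lists had reads, such as the steroidogenic gene Cyp11a1 at 0.326 to 0.596 CPM and the muscle actin Acta1 at 0.0600 to 1.23 CPM, and the summed lists were 8.85 to 14.5 CPM for adrenal, 16.2 to 18.1 CPM for striated muscle and 402 to 503 CPM for brown fat. In whole tissue, fewer cells of a type and less RNA per cell cannot be told apart.

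Ahnak itself (gene 66395, chr19:8989284-9076935 in GRCm38) had 148 and 140.1 CPM in the Ahnak KO libraries and 196 and 202 CPM in the WT libraries. Both Ahnak KO libraries were below both WT libraries, with a gap of 1.32-fold between the nearest pair. On the deposited TPM values Ahnak was also separated lower, by a narrower margin, at 20.6 and 22.1 TPM against 27.7 and 24.7 TPM. The log2 fold change was -0.47 with a 95% limma interval from -0.70 to -0.23, and in edgeR Ahnak missed the threshold (adjusted p = 0.9999). DESeq2's Wald test called it (adjusted p = 0.0303), while the alternatives in edgeR gave an adjusted p of 0.594 to 0.99995. The counts cover the whole gene and do not show which exons the remaining reads came from.

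Around the disrupted locus, the share of genes separated lower was near that of all genes, and the share separated higher was smaller. Within 5 Mb of Ahnak, 29 of 217 genes at 1 CPM or more were separated lower (13.4%) and 18 separated higher (8.29%). The shares were 12.9% and 13.5% on chromosome 19 as a whole, and 12.3% and 13.1% over all genes at 1 CPM or more. Apart from Ahnak, the neighbour with the widest gap below WT was Slc3a2 (chr19:8706882-8723369), the heavy chain shared by several amino acid exchangers. It had 62.5 and 52.4 CPM in Ahnak KO against 95.2 and 87.0 CPM in WT, a log2 fold change of -0.67 with a limma interval from -0.99 to -0.35. Slc3a2 missed the threshold in edgeR (adjusted p = 0.9999), passed it in DESeq2's Wald test (adjusted p = 0.00934) and was named after its values were seen.

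Across all genes the difference between the genotypes was small. Of 16481 genes tested, 2 passed an adjusted p under 0.05 in edgeR, both lower in Ahnak KO (0.0121%), and none was higher (0.0%). At an unadjusted p under 0.05 there were 227 genes (1.38%). By DESeq2's Wald test 21 genes were lower and 25 higher. The median log2 fold change over the genes at 1 CPM or more was -0.00041, with 6932 genes below 0 and 6897 above.

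Separation was common and usually narrow. In Ahnak KO, 1701 genes were separated lower (12.3%) and 1811 higher (13.1%), which together made 25.4% of genes at 1 CPM or more. With 2 libraries a genotype many genes can be separated by ordering alone, so these counts do not by themselves show a difference between the genotypes. They are a description, and no test is drawn from them. Scaling moved the split: on the deposited TPM values 2333 genes were lower and 1223 higher, with a median shift of -0.03 on the log2 scale, and 1606 and 1145 of these were separated the same way with TMM. The gap between the nearest libraries of the 2 genotypes had a median of 1.04-fold among the lower genes and 1.045-fold among the higher genes. A gap of at least 25% was left by 52 lower genes (0.376%) and 88 higher genes (0.636%), and a gap of at least 2-fold by 4 and 6.

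The limit of 25% falls in a continuous range. Just inside it lay Scml4, at 2.63 and 3.24 CPM in Ahnak KO against 4.05 and 4.17 CPM in WT. Just outside lay Cyp4a10, at 5.48 and 5.57 CPM against 6.96 and 7.96 CPM. On the higher side Dfnb59 was just inside at 1.94 and 1.88 CPM against 1.5 and 1.16 CPM, and Slc37a1 just outside at 3.93 and 4.32 CPM against 3.15 and 2.63 CPM. The gap exceeded the fold difference between replicates in both genotypes for 386 lower genes (22.7%) and 433 higher genes (23.9%), and 43 and 66 of these also had a gap of at least 25%.

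**Figure D1:**
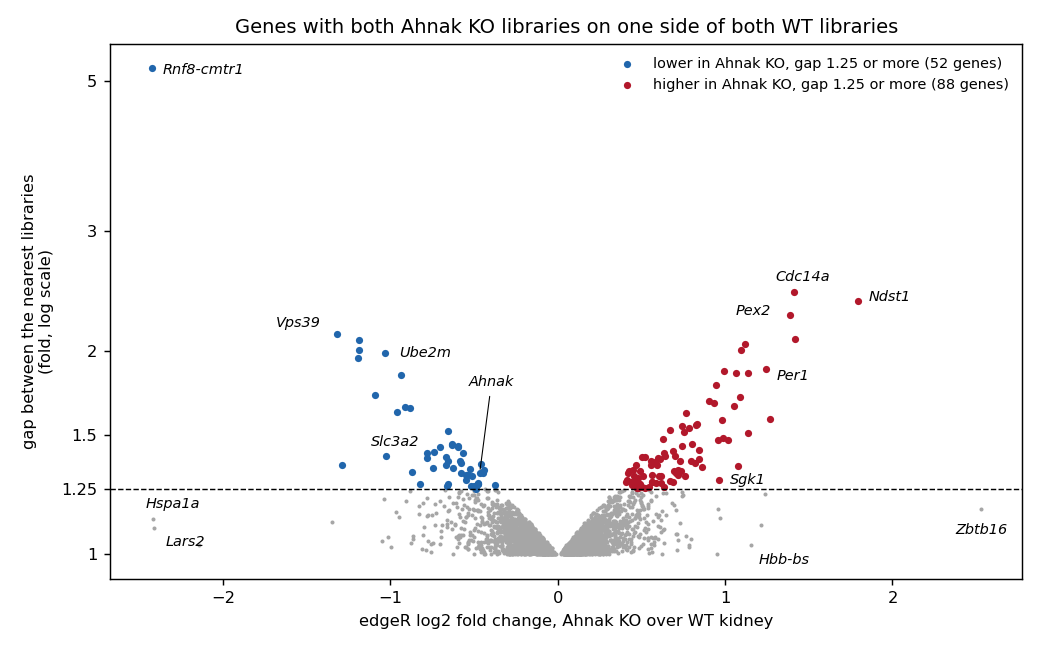
Each point is a gene with both Ahnak KO libraries on one side of both WT libraries, placed by its edgeR log2 fold change (horizontal axis) and by the fold gap between the nearest libraries of the 2 genotypes (vertical axis, log scale). Most points lie under the dashed line at a gap of 25%; 52 blue points (lower in Ahnak KO) and 88 red points (higher) lie on or above it, Rnf8-cmtr1 highest at 5.23-fold, while Hspa1a, Lars2, Zbtb16 and Hbb-bs combine a large fold change with a narrow gap.

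Of the 15 separated genes with the lowest fold changes in Ahnak KO, 7 had a gap wider than the spread of either genotype, Rnf8-cmtr1 and the 6 that follow. Vps39, a subunit of the HOPS complex that tethers late endosomes to lysosomes (chr2:120316461-120353142), had 25.3 and 20.8 CPM in Ahnak KO against 53.7 and 61.3 CPM in WT. The libraries of each genotype lay close together and 2.12-fold apart from the other genotype at the nearest. Its log2 fold change was -1.32, with a limma interval from -1.70 to -0.94 and an adjusted p of 0.195 in edgeR. The limma intervals here and below are not adjusted for the number of genes. For genes picked by fold change or separation, an interval that leaves out 0 is therefore not a test. Pip5k1a, a kinase that makes phosphatidylinositol 4,5-bisphosphate at the plasma membrane (chr3:95058530-95106930), had 26.3 and 29.6 CPM against 61.5 and 66.04 CPM. Again the genotypes did not overlap, and the log2 fold change was -1.19 (limma interval from -1.51 to -0.87). Nedd9, a docking protein of focal adhesions (chr13:41309916-41487362), had 29.2 and 26.6 CPM against 68.3 and 58.5 CPM, also a log2 fold change of -1.19 and a gap of 2.004-fold.

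Ube2m, the E2 enzyme that conjugates NEDD8 to cullins (chr7:13035120-13038275), was the most even of these genes. It had 51.9 and 53.2 CPM in Ahnak KO against 109 and 106 CPM in WT. The log2 fold change was -1.03, with a limma interval from -1.29 to -0.77, and the nearest libraries were 1.98-fold apart. Sh3bp5, an exchange factor for the small GTPase Rab11 (chr14:31372614-31436100), had 29.7 and 21.1 CPM against 58.4 and 57.9 CPM, a log2 fold change of -1.20. Ahsa2, a relative of the HSP90 co-chaperone Aha1 (chr11:23487882-23498045), had 25.0 and 23.0 CPM against 43.1 and 59.2 CPM, a log2 fold change of -1.09. Ahsa2 overlaps Usp34 in the annotation, so its reads are less certain. Outside the 15 lowest fold changes, Smek1, a regulatory subunit of protein phosphatase 4, had 67.03 and 70.4 CPM against 129.6 and 133 CPM and a gap of 1.84-fold, and it was named after its values were seen.

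Rnf8-cmtr1 and Gvin1 fell in Ahnak KO kidneys, the only genes to pass the adjusted threshold in edgeR (adjusted p = 0.0124 for both). Rnf8-cmtr1 (chr17:29614789-29705979) is a readthrough transcript that joins Rnf8, a ubiquitin ligase of the DNA damage response, to Cmtr1, an mRNA cap methyltransferase. It had 9.33 and 9.80 CPM in Ahnak KO against 51.2 and 51.5 CPM in WT, a log2 fold change of -2.43 with a limma interval from -2.78 to -2.07. The readthrough shares its exons with both genes, so a different split of the shared reads and a different amount of transcript cannot be told apart. Cmtr1 lay the other way, at 83.2 and 76.8 CPM against 50.6 and 44.2 CPM, and Rnf8 differed little, at 35.8 and 40.3 CPM against 42.9 and 40.6 CPM. The sum of the 3 genes was 128 and 127 CPM in Ahnak KO against 145 and 136 CPM in WT, a log2 ratio of -0.14. Gvin1, a very large interferon-inducible GTPase (chr7:106156535-106215340), was listed at 0 in both Ahnak KO libraries and had 1003 and 931 counts in the WT libraries. Set against 3 counts in each Ahnak KO library it was at least 277-fold lower, and since it did not reach 1 CPM everywhere it is not among the separated genes. Without WT replicate 2 both genes missed the threshold in edgeR, with an adjusted p of 0.0744 for Gvin1 and 0.0760 for Rnf8-cmtr1. With any other library left out they passed, at 5.55e-06 to 0.0331 for Gvin1 and 0.000388 to 0.0331 for Rnf8-cmtr1.

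Of the 15 separated genes with the highest fold changes, 9 had a gap wider than the spread of either genotype. Ndst1, which adds sulfate to the amino groups of heparan sulfate chains and so shapes binding sites for FGF and other ligands, had 141 and 161 CPM in Ahnak KO against 59.3 and 27.7 CPM in WT. WT replicate 2 lay well below WT replicate 1, and both were below either Ahnak KO library by at least 2.37-fold. The log2 fold change was 1.79 (limma interval from 1.101 to 2.68), with an adjusted p of 0.865 in edgeR. Cdc14a, a dual-specificity phosphatase (chr3:116272553-116428741), had 45.3 and 40.1 CPM against 16.4 and 15.7 CPM. Its replicates were close in both genotypes, the gap of 2.44-fold was the widest on this side, and the log2 fold change was 1.41 with an adjusted p of 0.195 in edgeR. Pex2, a ubiquitin ligase of the peroxisome membrane needed for protein import (chr3:5560188-5578596), had 63.8 and 62.5 CPM against 20.6 and 27.6 CPM, a log2 fold change of 1.39. Fignl1, an AAA ATPase of DNA repair (chr11:11800288-11808983), had 40.8 and 47.8 CPM against 13.6 and 19.6 CPM, a log2 fold change of 1.42.

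The protein tyrosine phosphatase Ptp4a1 (chr1:30940303-30949877) had 84.4 and 78.9 CPM in Ahnak KO against 38.5 and 36.6 CPM in WT. Its log2 fold change was 1.12 with a limma interval from 0.83 to 1.40. Plk3, a polo-like kinase of stress responses (chr4:117128655-117133963), had 13.8 and 14.9 CPM against 6.55 and 6.85 CPM, a log2 fold change of 1.09. Both genes were about as even within a genotype as Ube2m on the lower side. Cacna1a, the pore subunit of P/Q-type calcium channels (chr8:84338631-84640251), was scarcer, at 11.2 and 10.3 CPM against 4.08 and 5.99 CPM, with a log2 fold change of 1.09. Tmem33 and Sdccag3 were picked with their values in view. Tmem33, an endoplasmic reticulum membrane protein, had 110.4 and 96.0 CPM against 51.8 and 46.6 CPM, and Sdccag3, whose protein localizes to endosomes, had 82.4 and 92.0 CPM against 43.5 and 44.1 CPM.

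Ptprc, which encodes the leukocyte surface phosphatase CD45 (chr1:138062859-138175756), had 18.8 and 21.7 CPM in Ahnak KO against 8.25 and 10.1 CPM in WT. The genotypes lay 1.85-fold apart and the log2 fold change was 1.14. Of 16 macrophage markers 13 had a log2 fold change above 0. Of these 16, 4 were separated higher (25.0%, beside 13.1% of all genes), namely Ptprc, Cd163, Tyrobp and Ctss, and none lower (beside 12.3%). Csf1r, the receptor that macrophages need to survive, stood at 31.5 and 30.4 CPM against 31.5 and 28.5 CPM as the most constant member, and the summed list was 226 and 237 CPM against 235 and 178 CPM. WT replicate 2 was the lowest library for 10 of the 16, and the list's median log2 fold change went from 0.12 to -0.06 without it. All 4 neutrophil genes at 1 CPM or more had a log2 fold change above 0, with a median of 0.68, and WT replicate 2 was the lowest for all 4. Of the 4, only S100a8 was separated higher (25.0%, beside 13.1% of all genes), at 7.12 and 9.06 CPM against 4.83 and 3.51 CPM. The part of leukocyte number in the Ptprc difference was not tested.

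DESeq2's Wald test weighs a difference against the spread in the same libraries, so it gives the split by gap no independent support. It called 7 of the 7 lower and 7 of the 9 higher genes whose gap exceeded both spreads, and none of the other 8 and 6. In most of those other genes a lone library carried the fold change. Lars2, the mitochondrial leucyl-tRNA synthetase, had 40.4 and 36.5 CPM in Ahnak KO against 364 and 44.3 CPM in WT, so WT replicate 2 was close to the Ahnak KO libraries. Fam83h, a gene of keratin organization, was low in Ahnak KO replicate 2 alone, with 13.3 and 1.54 CPM against 18.1 and 18.3 CPM. Gas2l3, which links actin to microtubules, was low in Ahnak KO replicate 1 alone, with 3.07 and 26.8 CPM against 28.1 and 33.8 CPM. The sulfate and oxalate exchanger Slc26a1 (6.86 and 1.501 CPM against 8.91 and 8.27 CPM) and the matrix glycoprotein Tnxb (1.83 and 1.56 CPM against 6.57 and 2.05 CPM) showed the same dependence on a lone library. Zfp142, a zinc finger gene, differed within both genotypes, with 10.3 and 15.95 CPM against 22.3 and 31.2 CPM.

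On the higher side, the retromer subunit Vps26a had 31.8 and 83.9 CPM in Ahnak KO against 25.8 and 23.2 CPM in WT. The ubiquitin-like modifier Sumo3 had 174 and 63.2 CPM against 57.2 and 44.9 CPM. In each, a lone Ahnak KO library stood far above the other 3. Kcna5, a voltage-gated potassium channel, had 3.99 and 4.83 CPM against 2.64 and 1.35 CPM, and the predicted gene Gm5483 had 2.804 and 4.07 CPM against 1.77 and 1.07 CPM, both near the 1 CPM limit.

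Further names in these lists belong to near-identical gene copies. The inducible HSP70 genes Hspa1a and Hspa1b are neighbours on chromosome 17 with almost the same sequence. Summed, they had 44.1 and 59.0 CPM in Ahnak KO against 62.9 and 429 CPM in WT, so the log2 ratio of -2.25 rested on WT replicate 2. The adult beta-globin gene Hbb-bs had 536 and 439.8 CPM in Ahnak KO against 427 and 11.6 CPM in WT, a log2 fold change of 1.15. In WT replicate 2 the reads lay on Hbb-b1 instead, at 844 CPM against 0.0900 to 0.159 CPM in the other 3 libraries. Summed over Hbb-bs, Hbb-bt, Hbb-b1 and Hbb-b2, beta-globin was 800.0 and 643 CPM against 622 and 1282 CPM, a log2 ratio of -0.40, so the direction turned. The alpha-globin genes showed a switch of another library: Hba-a1 had 359.9 CPM in Ahnak KO replicate 1 and 8.32 to 12.7 CPM in the others, where Hba-a2 had 363 to 671 CPM. The part of blood content, globin haplotype and read assignment in these values was not tested.

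**Figure D2:**
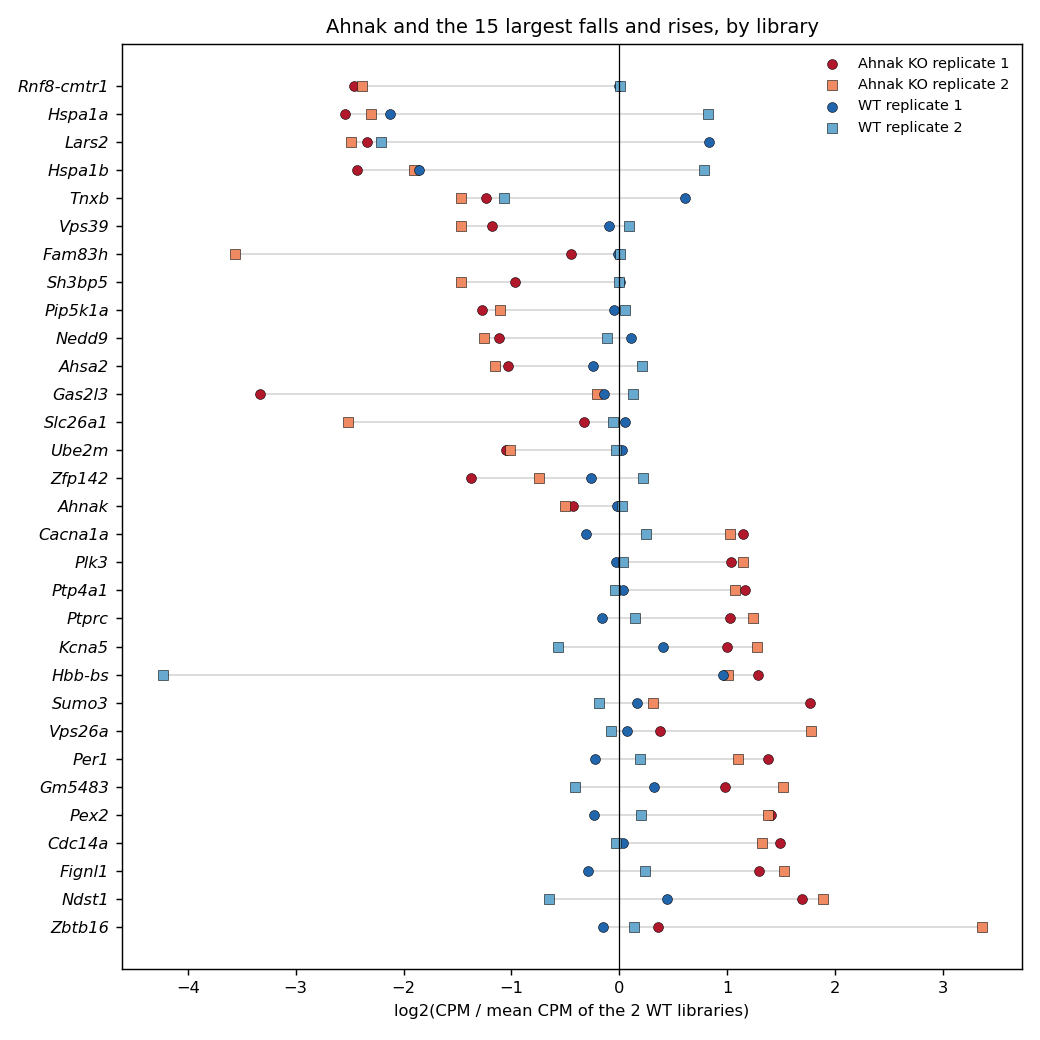
Each row is a gene, with Ahnak between the 15 separated genes of lowest and the 15 of highest fold change; symbols give log2 of the CPM in each of the 4 libraries over the mean CPM of the WT libraries. Rows such as Ube2m, Pip5k1a, Cdc14a and Ptp4a1 show replicate pairs close together and apart from the other genotype, while in Lars2, Hspa1a, Fam83h, Zbtb16 and Hbb-bs a lone library lies far from the other 3.

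Per1 and Sgk1, both targets of the glucocorticoid receptor, were higher in Ahnak KO. Per1, a repressor of the circadian clock (chr11:69095108-69109965), had 105 and 86.7 CPM in Ahnak KO against 34.6 and 46.2 CPM in WT, a gap of 1.88-fold and a log2 fold change of 1.24 with a limma interval from 0.82 to 1.68. Sgk1, a kinase that raises sodium channel activity in the collecting duct (chr10:21882184-21999903), had 199 and 306 CPM against 154 and 104 CPM. Its log2 fold change was 0.96 with a limma interval from 0.35 to 1.56. The gap of Sgk1 was 1.29-fold, narrower than the fold difference between replicates of either genotype. Neither gene passed in edgeR (adjusted p = 0.421 for Per1 and 0.9999 for Sgk1). Of the 32851 RefSeq promoters of GRCm38.p6, read as the 250 bases before a start site on both strands, 3 hold the full glucocorticoid receptor motif (0.00913%), which is AGAACA and TGTTCT around 3 free bases, and 1978 hold the E-box CACGTG, the core element bound by CLOCK (6.02%). Since each reads the same on the opposite strand, both strands give the same matches, and neither motif contains the other. The upstream sequences are shown because these are the separated genes of the list that hold a motif. The capitals mark the receptor motif at one Sgk1 start, 189 to 175 bases before it (chr10:21993640-21993889, plus strand), and the E-box at one Per1 start, 166 to 161 bases before it (chr11:69098699-69098948, plus strand). The E-box of the Sgk1 window is left in lower case. Such a match is a description of the letters, not evidence of binding. Each gene has further start sites, which the gene counts do not separate.
Sgk1: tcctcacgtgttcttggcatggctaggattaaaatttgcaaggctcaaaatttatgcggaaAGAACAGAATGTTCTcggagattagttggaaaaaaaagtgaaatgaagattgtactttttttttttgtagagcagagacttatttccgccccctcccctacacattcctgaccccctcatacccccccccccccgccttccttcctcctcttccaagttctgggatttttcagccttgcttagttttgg
Per1: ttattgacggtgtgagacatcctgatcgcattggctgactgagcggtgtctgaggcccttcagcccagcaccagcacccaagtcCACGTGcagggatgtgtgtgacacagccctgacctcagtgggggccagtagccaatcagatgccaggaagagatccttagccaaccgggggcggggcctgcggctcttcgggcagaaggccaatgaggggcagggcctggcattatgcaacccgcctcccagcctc

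The rest of the glucocorticoid list did not share one direction by genotype. Of its 10 genes, 3 were separated higher (Sgk1, Zbtb16 and Per1), beside 13.1% of all genes at 1 CPM or more. None was separated lower, beside 12.3%. The median log2 fold change was 0.36. That median rested on Ahnak KO replicate 2, which was the highest library for 6 of the 10, and without it the median was 0.0028. Zbtb16, a transcription factor induced by glucocorticoids, had 1.78 and 14.2 CPM in Ahnak KO against 1.245 and 1.52 CPM in WT. The receptor co-chaperone Fkbp5 had 40.1 and 79.9 CPM against 38.0 and 42.2 CPM, and the anti-inflammatory mediator Tsc22d3 had 68.5 and 105 CPM against 60.2 and 75.7 CPM. In all 3 genes Ahnak KO replicate 2 stood above the other libraries, and Ahnak KO replicate 1 was not above both WT libraries for Fkbp5 or Tsc22d3. Among 17 promoters of 8 list genes in the RefSeq table, 1 held the receptor motif (Sgk1) and 3 held the E-box (Fkbp5, Per1 and Sgk1). Of 17 circadian clock genes 5 were constant (29.4%, beside 49.3% of all genes at 1 CPM or more) and 8 bounded. Clock and Cry2 were among the most constant: Clock had 61.5 and 54.9 CPM against 57.1 and 56.5 CPM, Cry2 had 28.0 and 27.5 CPM against 28.1 and 26.8 CPM, and Per3 was separated lower at 24.04 and 22.8 CPM against 25.9 and 27.6 CPM.

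To describe which genes stayed level, a gene was called constant when its highest library was less than 25% above its lowest, and bounded when limma's 95% interval of the difference lay within 1.5-fold either way. Over all genes at 1 CPM or more, 6822 were constant (49.3%) and 8607 bounded (62.2%). The interval reached a median of 0.39 on the log2 scale, or 1.31-fold, to either side of the estimate. Depth weighed on this, since 13.5% of genes with a mean of 1 to 10 CPM were constant against 70.8% of those between 50 and 200 CPM. No member of the nephron, stromal, vascular or signalling lists at 1 CPM or more differed by more than 2-fold. None of the tested members of these lists passed the adjusted threshold in edgeR.

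The nephron progenitor list was the most level of the nephron lists. Of 14 genes at 1 CPM or more, 9 were constant (64.3%, beside 49.3% of all genes) and 13 bounded (92.9%, beside 62.2%). The median log2 fold change was -0.04. Six2, which keeps progenitors undifferentiated, had 126 and 108 CPM in Ahnak KO against 107 and 131 CPM in WT, and its limma interval ran from -0.36 to 0.32. Cited1, a marker of the uninduced cap, had 59.4 and 63.6 CPM against 63.4 and 63.0 CPM, with an interval from -0.32 to 0.23. In both genes the genotypes overlapped. Meox1, a homeobox gene of the cap, was separated higher at 32.6 and 31.9 CPM against 28.1 and 25.6 CPM, and the homeobox gene Uncx separated lower at 97.1 and 92.5 CPM against 102 and 102 CPM.

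Of 14 early nephron genes 4 were separated lower (Lhx1, Fgf8, Dll1 and Pou3f3) and 4 higher (Cdh6, Irx1, Irx2 and Irx3), 28.6% each way beside 12.3% lower and 13.1% higher over all genes. Lhx1, a transcription factor required in the renal vesicle, had 31.6 and 29.8 CPM in Ahnak KO against 37.4 and 40.3 CPM in WT, with a limma interval from -0.66 to -0.02. The Notch ligand Dll1 had 25.4 and 30.4 CPM against 34.7 and 33.8 CPM, a log2 fold change of -0.30. The Iroquois genes mark the segment that becomes the loop of Henle. Irx1 had 37.9 and 37.8 CPM against 31.0 and 25.1 CPM, with an interval from 0.07 to 0.82, and Irx3 had 34.6 and 32.6 CPM against 27.0 and 27.5 CPM. Wnt4, the signal for the conversion of progenitors to epithelium, stayed level at 109.8 and 124 CPM against 114 and 109.7 CPM, as did the lineage factor Pax8 at 143 and 133 CPM against 153 and 125 CPM.

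Of 22 podocyte genes 1 was separated lower (4.55%, beside 12.3% of all genes) and 4 higher (18.2%, beside 13.1%). Of the same 22, 9 were constant (40.9%, beside 49.3%) and 12 bounded (54.5%, beside 62.2%). Ahnak KO replicate 1 was the highest library for 10 and WT replicate 2 for 8. Nphs1, which encodes nephrin of the slit diaphragm, had 53.6 and 35.5 CPM in Ahnak KO against 39.8 and 52.4 CPM in WT. Ahnak KO replicate 1 and WT replicate 2 were high, and the genotypes overlapped. Npnt, a ligand of the glomerular basement membrane, was flat at 509.5 and 484 CPM against 519 and 481 CPM, and Wt1, the podocyte regulator, was separated by a narrow margin at 249 and 238 CPM against 215 and 226 CPM. Kirrel, another slit diaphragm gene, swung between replicates of both genotypes, at 21.5 and 83.3 CPM against 18.6 and 89.5 CPM.

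The same pairing of Ahnak KO replicate 1 with WT replicate 2 ran through the proximal tubule. Only 4 of 31 genes were constant and 7 bounded (22.6%, beside 62.2% of all genes). Lrp2, the endocytic receptor megalin, had 508 and 317 CPM in Ahnak KO against 317 and 509.9 CPM in WT, with a limma interval from -0.69 to 0.68. Slc34a1, the main phosphate transporter, had 341 and 225 CPM against 225 and 319 CPM. The genotypes overlapped completely for both. WT replicate 1 was the lowest library for 20 of the 31, and the list's median of 0.07 moved between -0.18 and 0.35 when each library was left out. Hnf4a, the regulator of this segment, was among 5 genes separated higher (16.1%, beside 13.1% of all genes), at 117 and 116 CPM against 105 and 106 CPM. Slc22a8, an organic anion transporter, was the only gene separated lower (3.23%, beside 12.3%).

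In the loop of Henle, 3 of 13 genes were separated lower (23.1%, beside 12.3% of all genes), namely Kcnj1, Sostdc1 and Egf. Irx1 was separated higher (7.69%, beside 13.1%), and the median log2 fold change was -0.10. Kcnj1, the potassium channel that recycles potassium into the lumen, had 37.0 and 33.4 CPM in Ahnak KO against 43.1 and 56.3 CPM in WT, with a limma interval from -0.89 to -0.08. It had the lowest fold change of any nephron list member whose interval lay wholly below 0. The sodium transporter Slc12a1 (339 and 297 CPM against 288 and 400.0 CPM) and the secreted protein Umod (111 and 125 CPM against 152 and 108 CPM) overlapped between genotypes. In the distal tubule 1 of 11 genes was separated (Emx1, higher), and the thiazide-sensitive transporter Slc12a3 had 74.7 and 48.9 CPM against 51.9 and 81.2 CPM.

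Principal cells of the collecting duct had 8 of 18 genes constant (44.4%, beside 49.3% of all genes) and 14 bounded (77.8%, beside 62.2%). Gata3, the regulator of the ureteric bud and its descendants, had 64.1 and 71.4 CPM in Ahnak KO against 68.1 and 66.2 CPM in WT, with a limma interval from -0.27 to 0.30. The water channel Aqp2 had 324 and 379 CPM against 399 and 273 CPM, and Aqp4 had 38.8 and 37.3 CPM against 37.6 and 34.1 CPM. The sodium channel subunit Scnn1b, part of the channel that Sgk1 acts on, stayed level at 86.4 and 85.8 CPM against 88.8 and 74.6 CPM. Of the 18 genes, 1 was separated lower (5.56%, beside 12.3% of all genes) and 3 higher (16.7%, beside 13.1%), and 16 had a log2 fold change above 0. WT replicate 2 was the lowest library for 11 of the 18, and the median log2 fold change of 0.09 was 0.02 without it. Avpr2, the vasopressin receptor, was the gene separated lower, at 7.28 and 10.8 CPM against 13.9 and 10.9 CPM, with a gap of 1.01-fold. Of 14 intercalated cell genes 1 was constant, and the proton pump subunit Atp6v1b1 again set Ahnak KO replicate 1 and WT replicate 2 (73.0 and 64.1 CPM) above the other libraries (40.2 and 40.4 CPM).

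**Figure D3:**
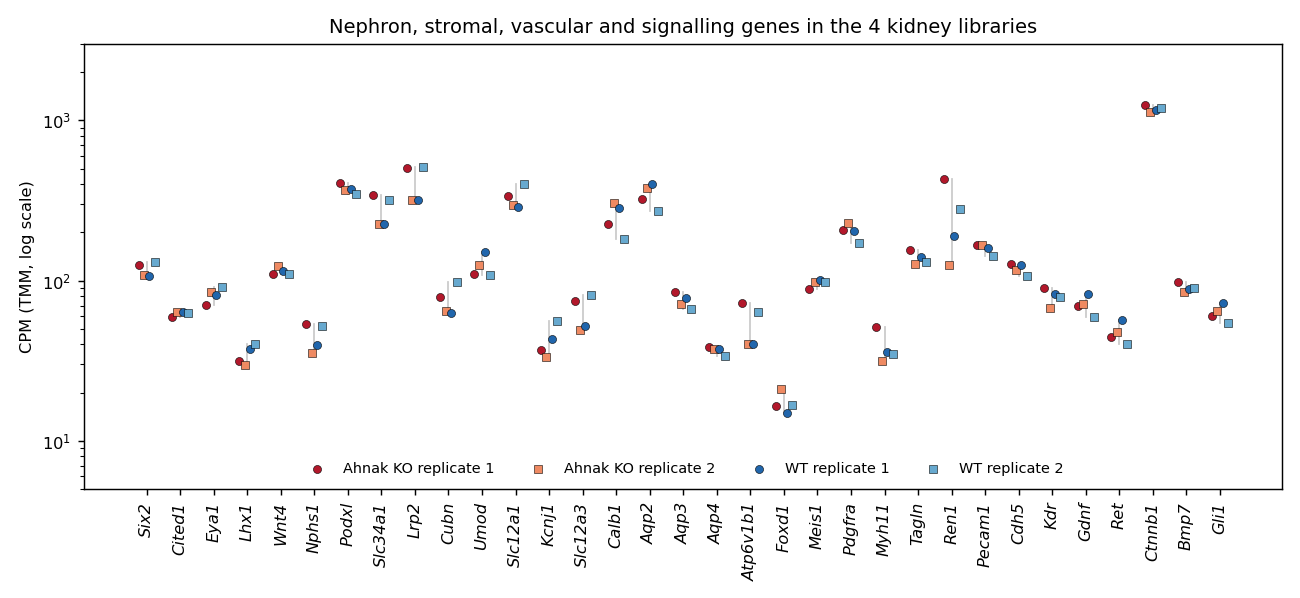
CPM (vertical axis, log scale) of 33 nephron, stromal, vascular and signalling genes in the 4 kidney libraries, red for Ahnak KO and blue for WT. Cited1, Wnt4, Meis1 and Ctnnb1 hold the 4 libraries close together, while Lrp2, Slc34a1, Nphs1 and Ren1 spread within both genotypes, with Ahnak KO replicate 1 and WT replicate 2 high.

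Of 32 stromal genes 11 were constant (34.4%, beside 49.3% of all genes) and 21 bounded (65.6%, beside 62.2%). Of the 32, 1 was separated lower (3.12%, beside 12.3%) and 4 higher (12.5%, beside 13.1%), namely Pdgfra, Ntn1, Lox and Vim. Lox, which cross-links collagen and elastin, had 173 and 153 CPM in Ahnak KO against 131 and 124 CPM in WT, with a limma interval from 0.09 to 0.62. Foxd1, the factor of the cortical stromal progenitors, had 16.5 and 21.2 CPM against 15.03 and 16.8 CPM, and Meis1, a broader stromal factor, had 88.5 and 98.4 CPM against 102 and 97.8 CPM. Foxd1 and Meis1 overlapped between genotypes. WT replicate 2 was the lowest library for 18 of the 32, and the median of 0.05 was -0.01 without it. Of 18 smooth muscle genes 9 were constant, with Tagln, an actin-binding protein, at 156 and 128 CPM against 141 and 130.3 CPM. The fibrillar collagen gene Col3a1 was constant, at 1488 and 1210.0 CPM against 1389 and 1250.4 CPM.

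Vascular genes leaned higher in Ahnak KO. Of 40 endothelial genes 9 were separated higher (22.5%, beside 13.1% of all genes) and 2 lower, with a median log2 fold change of 0.14 and 32 of 40 above 0. None passed the adjusted threshold in edgeR. Clec14a, a lectin of sprouting endothelium, had 44.0 and 55.1 CPM in Ahnak KO against 35.96 and 33.6 CPM in WT, with a limma interval from 0.13 to 0.87. Calcrl, the receptor for adrenomedullin, had 99.7 and 92.5 CPM against 73.3 and 82.0 CPM, with an interval from 0.03 to 0.59. The junction protein Pecam1 was narrower, at 166 and 166 CPM against 160.3 and 143 CPM, and the VEGF receptor Kdr overlapped, at 89.9 and 67.6 CPM against 82.4 and 79.6 CPM. WT replicate 2 was the lowest library for 24 of the 40 genes. Without it the median was 0.06, and without WT replicate 1 it was 0.20, so the lean rested in part on one library.

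Ehd3, a marker of glomerular capillaries, was the steadiest endothelial gene, at 33.9 and 34.5 CPM against 34.1 and 31.8 CPM. The mural and renin list had 3 of 15 genes separated higher (beside 13.1% of all genes) and none lower (beside 12.3%). All 15 had a log2 fold change above 0, with a median of 0.10. Only 3 of the 15 were constant (beside 49.3% of all genes) and 6 bounded (beside 62.2%). The pericyte gene Rgs5 had 348 and 347 CPM against 340.4 and 329.9 CPM, with a limma interval from -0.16 to 0.27. Ren1, which encodes renin, ran from 125 CPM in Ahnak KO replicate 2 to 433 CPM in Ahnak KO replicate 1, and both WT libraries (190.2 and 278 CPM) lay between them. S1pr1, the sphingosine phosphate receptor of endothelium, and Ednrb, an endothelin receptor, were named after their values were seen. S1pr1 had 33.9 and 33.1 CPM against 22.9 and 23.7 CPM, and Ednrb had 119.8 and 121 CPM against 93.7 and 83.6 CPM.

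**Figure D4:**
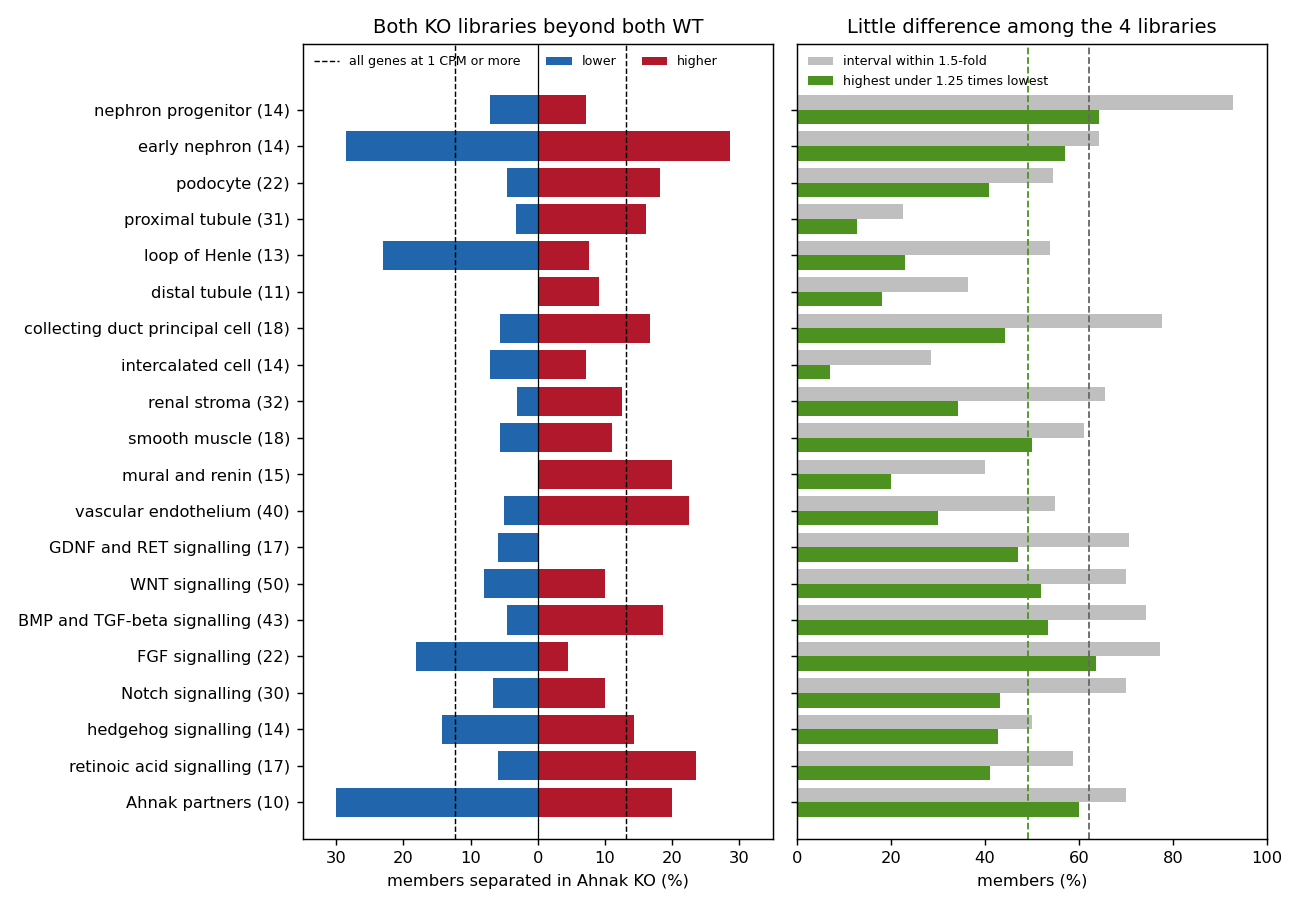
For each nephron, stromal, vascular and signalling list (number of genes at 1 CPM or more in brackets), the left panel gives the percent of members separated lower (blue) or higher (red) in Ahnak KO, and the right panel the percent bounded within 1.5-fold (grey) or constant within 25% (green). Dashed lines mark the same shares over all 13829 genes: 12.3% lower, 13.1% higher, 49.3% constant and 62.2% bounded; the proximal tubule and intercalated cell lists have the lowest shares of bounded genes.

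Of 17 genes of branching signals from GDNF to RET 8 were constant (47.1%, beside 49.3% of all genes) and 12 bounded (70.6%, beside 62.2%), 1 was separated lower and none higher, and the median log2 fold change was -0.02. The ligand Gdnf had 69.5 and 71.7 CPM in Ahnak KO against 83.1 and 59.5 CPM in WT, and the receptor Ret had 44.2 and 48.04 CPM against 56.5 and 40.0 CPM. In both, the Ahnak KO libraries lay between the WT libraries. Etv4, an ETS factor downstream of RET, was the separated gene, at 86.7 and 87.1 CPM against 96.9 and 88.4 CPM, with a gap of 1.02-fold. The guidance ligand Slit2, which limits where the ureteric bud forms, had 109 and 104 CPM against 107 and 101 CPM.

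WNT signalling genes were constant for 26 of 50 members (beside 49.3% of all genes) and bounded for 35 (beside 62.2%). Of the 50, 4 were separated lower (beside 12.3%) and 5 higher (beside 13.1%). Ctnnb1, the beta-catenin transducer, had 1244 and 1127 CPM in Ahnak KO against 1164 and 1200.2 CPM in WT, with a limma interval from -0.23 to 0.23. The target Axin2 likewise overlapped, at 29.4 and 32.5 CPM against 34.8 and 29.3 CPM. Lgr4, an R-spondin receptor that lifts WNT signalling, had the clearest separation, at 294 and 282 CPM against 228 and 217 CPM. The interval of its log2 fold change of 0.37 ran from 0.15 to 0.60, and the gap was 1.24-fold. Its relative Lgr5 lay on the other side, at 12.8 and 15.1 CPM against 17.5 and 15.7 CPM, with a gap of 1.04-fold.

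Of 43 BMP and TGF-beta genes 8 were separated higher (18.6%, beside 13.1% of all genes), namely Bmpr1a, Bmpr2, Acvr2a, Tgfbr1, Tgfbr3, Smad1, Smad4 and Id2, and 2 lower (Bmp2 and Smad3). Tgfbr3, the co-receptor betaglycan, had 51.0 and 48.8 CPM in Ahnak KO against 37.4 and 35.4 CPM in WT, with a limma interval from 0.16 to 0.76 and a gap of 1.31-fold. Bmpr2 had 202 and 188 CPM against 163 and 166 CPM, with an interval from 0.01 to 0.48. Smad3, which Ahnak is known to bind, was separated lower by a narrow margin, at 115 and 109.6 CPM against 132 and 117 CPM. The BMP target Id3 had 256 and 261 CPM against 263 and 260.3 CPM, the latent TGF-beta binding protein Ltbp3 had 112 and 114 CPM against 115 and 110.0 CPM, and the ligand Bmp7 had 98.3 and 84.5 CPM against 88.8 and 90.1 CPM. WT replicate 2 was the lowest library for 21 of the 43 genes, and the median of 0.06 was 0.02 without it.

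FGF signalling had 4 of 22 genes separated lower (18.2%, beside 12.3% of all genes), namely Fgf8, Fgfrl1, Spry4 and Etv4. Fgf10 was separated higher (4.55%, beside 13.1%), and 14 genes were constant (63.6%, beside 49.3%). The inhibitor Spry4 had 32.2 and 30.3 CPM in Ahnak KO against 36.5 and 37.0 CPM in WT. The receptor Fgfr2, needed in the ureteric bud, overlapped at 215 and 229 CPM against 215 and 184 CPM. In the Notch list 21 of 30 genes were bounded. Notch2, the receptor that proximal fate depends on, had 145 and 130.3 CPM against 141 and 142 CPM, while its target Hes1 had 38.1 and 38.7 CPM against 40.4 and 58.2 CPM. Numb, a Notch inhibitor, was low in WT replicate 2 alone, with 53.0 and 52.4 CPM against 48.1 and 19.998 CPM.

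Of 14 hedgehog genes 6 were constant and 7 bounded, where 62.2% of all genes were bounded. Of the 14, 2 were separated each way (14.3%, beside 12.3% lower and 13.1% higher over all genes). Ihh, a ligand of maturing proximal tubules, had 17.4 and 20.5 CPM in Ahnak KO against 11.2 and 14.9 CPM in WT, a log2 fold change of 0.54. The co-receptors lay on opposite sides: Gas1 had 201 and 210.4 CPM against 175 and 154 CPM, and Cdon had 38.0 and 39.1 CPM against 49.0 and 45.2 CPM. Ptch1, both receptor and target of the pathway, stayed level at 104 and 93.7 CPM against 103 and 101 CPM. Of 17 retinoic acid genes 10 were bounded (58.8%), 4 were separated higher (23.5%, beside 13.1% of all genes) and 1 lower (5.88%, beside 12.3%). Cyp26b1, which degrades retinoic acid, had 22.3 and 25.6 CPM against 13.2 and 17.7 CPM, with an interval from 0.16 to 1.13, and Dhrs3, which turns retinaldehyde back to retinol, had 108 and 113 CPM against 87.1 and 95.5 CPM. The receptor Rxra did not separate, at 77.6 and 80.6 CPM against 84.4 and 79.7 CPM.

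Among 10 known binding partners of Ahnak at 1 CPM or more, 6 were constant (beside 49.3% of all genes) and 7 bounded (beside 62.2%). Of these 10, 3 were separated lower (beside 12.3%) and 2 higher (beside 13.1%). S100a10, the adaptor that links Ahnak to annexin 2, had 209 and 266 CPM in Ahnak KO against 214 and 170.4 CPM in WT, with a limma interval from -0.08 to 0.69. Anxa2 had 435 and 460.4 CPM against 426 and 409.9 CPM, a gap of 1.02-fold. Plcg1, the phospholipase C that Ahnak is known to activate, was separated lower at 99.1 and 102 CPM against 107 and 118 CPM. Ppp2ca, the catalytic subunit of PP2A, was the most constant of them, at 311 and 307 CPM against 306 and 310.2 CPM, with an interval from -0.21 to 0.22.

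Cell cycle genes leaned lower in Ahnak KO. Of 36 genes 8 were separated lower (22.2%, beside 12.3% of all genes), none was separated higher, and 20 were constant. The mitotic kinase Plk1 had 43.7 and 46.5 CPM in Ahnak KO against 53.0 and 59.2 CPM in WT, with a limma interval from -0.62 to -0.01. The anaphase activator Cdc20 had 68.2 and 81.5 CPM against 92.8 and 88.7 CPM, and the proliferation marker Mki67 had 632 and 577 CPM against 636 and 689.8 CPM, with a gap of 1.01-fold. Ccna2, a cyclin of S phase and G2, did not separate, at 213 and 205 CPM against 209 and 216 CPM. None passed the adjusted threshold in edgeR. WT replicate 2 was the highest library for 26 of the 36 genes, and the median of -0.09 was -0.01 without it.

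Genes that answer to oxygen, lipid supply and handling varied by library. The hypoxia list stood highest in WT replicate 2 for 17 of 23 genes, with a median deviation of 0.47 on the log2 scale from the mean of the 4 libraries, and lowest in WT replicate 1, at -0.34. Ldha, a glycolytic enzyme, had 816 and 608 CPM in Ahnak KO against 503 and 1107 CPM in WT. Cholesterol synthesis genes were lowest in Ahnak KO replicate 2 for 20 of 23, with Hmgcs1, an early enzyme of the pathway, at 337 and 216 CPM against 203 and 309 CPM. Immediate early genes were highest in Ahnak KO replicate 1 for 14 of 23, with Fos at 90.4 and 6.51 CPM against 46.0 and 44.2 CPM. In each of these lists the genotypes overlapped at the median. Single members were separated in all of them. Of 23 genes in each list, 2 were separated lower and 2 higher for hypoxia, and 3 and 1 for cholesterol synthesis. In the immediate early list they were 1 lower (4.35%, beside 12.3% of all genes) and 4 higher (17.4%, beside 13.1%). Ctgf, in that list as a target of YAP and TGF-beta, was separated higher, at 86.1 and 103 CPM against 50.5 and 55.3 CPM. Its limma interval ran from 0.51 to 1.15, with an adjusted p of 0.569 in edgeR. The part of oxygen supply or handling in the differences above was not tested.

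**Figure D5:**
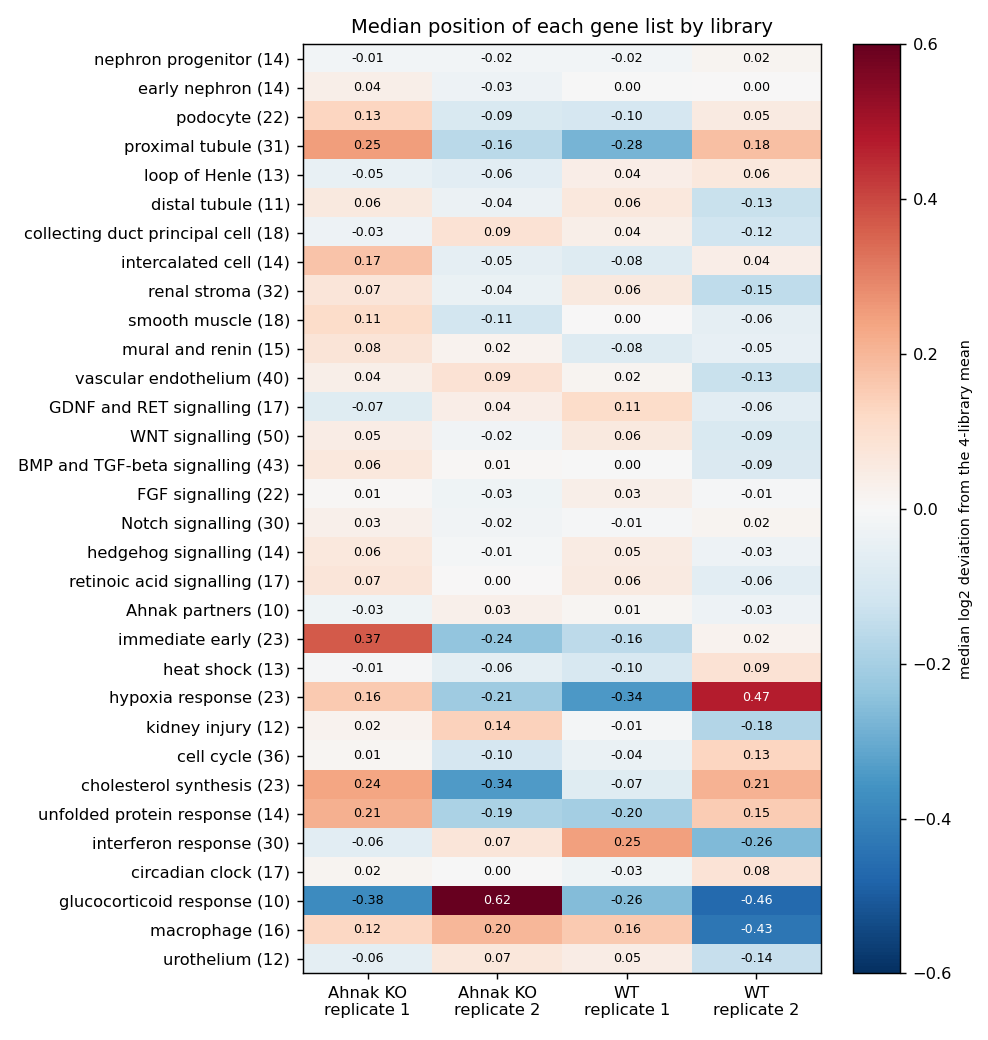
For each list with at least 10 genes at 1 CPM or more (number in brackets), the colour and the printed value give the median, over its genes, of the log2 deviation of a library from the mean of the 4 libraries. The progenitor, FGF and Notch rows are near 0 in every library; the hypoxia row reaches 0.47 in WT replicate 2, the glucocorticoid row 0.62 in Ahnak KO replicate 2, and the proximal tubule row is positive in Ahnak KO replicate 1 and WT replicate 2.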

How the data were processed

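RNA of PN1 mouse kidneys was sequenced in 4 libraries, 2 from Ahnak KO and 2 from WT mice. The 2 ureter libraries of the series are not used here. The gene table deposited by the authors holds, for each library, estimated counts given as whole numbers, FPKM and TPM. FPKM and TPM were normalized by the authors for length and depth. The sources differ on how the reads were processed: the paper's methods name Cutadapt, STAR, Cufflinks and GRCm39, while the submitters' processing notes name mm10, FastQC 0.11.7, Trimmomatic 0.38, HISAT2 2.1.0, StringTie 1.3.4b, edgeR and R 3.6.1. Which were used cannot be told apart, and both could divide reads of overlapping or near-identical genes differently. The kit marks strand, and whether counting used it is not stated. All per-sample columns were assigned from their names, 27 symbols damaged by a spreadsheet were restored, and 24462 genes were matched to RefSeq GRCm38 for positions and promoters. Mitochondrially encoded genes are not analysed here.

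A count test was planned, and it was run on the deposited estimated counts. Genes passing filterByExpr (16481) were fitted with TMM scaling and the quasi-likelihood test of edgeR 4.0.16 in R 4.3.3. Genotype was the sole term of the model, with Benjamini-Hochberg adjustment and a threshold of 0.05. The 95% intervals came from limma 3.58.1 with trend on log2 CPM with a prior count of 2, so they belong to its own estimate of the log2 fold change. Each interval covers a single gene without adjustment for the 16481 genes tested, of which limma called 2 at an adjusted p under 0.05. DESeq2 1.42.0 was an alternative. Lists, gaps and figures were made with Python 3.11.15, numpy 2.4.6, pandas 2.3.3 and matplotlib 3.10.9. The fits were tested on simulated data. With 2 libraries a genotype the fit had 2 residual degrees of freedom. The libraries held 55744703 to 66095616 counts, and 3 counts, taken as the floor for a gene at 0, stood for 0.0450 to 0.0543 CPM.

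Genes were named by rule: Ahnak, the 15 lowest and 15 highest edgeR log2 fold changes among separated genes (leaving out 17 genes that the study measured by qPCR or tabulated), all genes past the threshold, and for each list its first 3 members, its 2 largest separated differences each way and its 3 most constant members at a mean of 10 CPM or more. Other list members are given as examples and were chosen after their values were seen. The 42 lists and their members were chosen with earlier results of these data known. Alternatives were other scalings, filters, units and tests, and leaving out each library. Replicate numbers did not pair the libraries: deviations of libraries with the same number correlated at -0.36.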

Additional observations from a re-analysis of the deposited data

How the results depend on the processing

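With 2 libraries a genotype the count of called genes depended on the method. The 2 lower genes called by edgeR became 21 by DESeq2, 1 with at least 10 counts in every library, and 0 with limma on log2(FPKM + 1) or log2(FPKM + 0.1). The 0 higher genes became 25 by DESeq2. Leaving out each library gave 2 to 63 lower genes and 1 to 24 higher genes, with the lone library assumed to vary like the others. The highest counts, 63 lower and 24 higher, came without Ahnak KO replicate 2; without Ahnak KO replicate 1 they were 24 and 22, and without WT replicate 1 they were 6 and 4. The cause was not tested. With the replicate block, 0 lower and 0 higher genes passed (73 and 82 at an unadjusted p under 0.05 in edgeR), and the crossed replicate block, chosen after seeing the data, gave 1 and 0. With the block on the replicate numbers, Gvin1 and Rnf8-cmtr1 both missed the threshold. Both missed it also without WT replicate 2.

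The count of separated genes dropped to 52 lower and 88 higher with nearest libraries at least 25% apart, and was 3869 to 4615 lower and 4104 to 4536 higher with each library left out, since fewer libraries have to be ordered. Library size alone gave 2073 lower and 1484 higher genes, 58.3% lower against 48.4% with TMM, with a median shift of -0.02 on the log2 scale. Constant genes numbered 11029 when the limit was 1.5 times. The log2 fold change of Hbb-bs reversed to -0.40 when beta-globin reads were summed, and that of Rnf8-cmtr1 shrank to -0.14 when summed with its partners, both sums chosen after seeing the data. Of 32 named genes, 14 passed by DESeq2 and not by edgeR. Of 39 list medians, 37 stayed within the spread under library size alone, and 10 to 14 moved with a library left out. Below about 10 CPM the depth limits what can be called constant.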

Other observations

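Several other lists held fewer bounded genes than the 62.2% of all genes: 35.7% for the unfolded protein response, 40.0% for interferon response, 41.7% for kidney injury and 46.2% for heat shock. Of 14 genes of the unfolded protein response 4 were separated higher (28.6%, beside 13.1% of all genes) and none lower (beside 12.3%). Their median log2 fold change of 0.04 lay between -0.18 and 0.28 when each library was left out. Interferon-stimulated genes other than Gvin1 followed single WT libraries, with WT replicate 1 the highest for 23 of 30 genes and WT replicate 2 the lowest for 21. All 12 kidney injury genes at 1 CPM or more had a log2 fold change above 0, with a median of 0.17, but 2 were separated (16.7%, beside 13.1% of all genes separated higher). Havcr1, the injury marker KIM-1, was near 0 in every library (0.353 and 0.235 CPM in Ahnak KO against 0.390 and 0.403 CPM in WT). Without WT replicate 2, the lowest library for 7 of the 12, the median was 0.08. Of 13 heat shock genes 2 were separated lower (Hspa1a and Hspa1b) and 1 higher, and the median was -0.02.

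None of 12 urothelial genes at 1 CPM or more was separated, and their summed level was 147 to 160 CPM. Liver genes summed to 116 to 140.2 CPM, of which Afp, a gene of fetal liver, made 77.0 to 94.1 CPM, and brown fat genes to 402 to 503 CPM, mostly from Fabp4, which endothelium also expresses. Adrenal genes summed to 8.85 to 14.5 CPM and were highest in Ahnak KO replicate 2, the library that was also highest for 6 of the 10 glucocorticoid response genes; the part of adrenal tissue in those values was not tested. Neuron and Schwann cell genes summed to 30.6 to 38.5 CPM, striated muscle genes to 16.2 to 18.1 CPM and gonad genes to 1.04 to 2.86 CPM. On the X chromosome, the genes Ddx3x (811 and 642 CPM against 620.0 and 534 CPM) and Eif2s3x (265 and 167 CPM against 160.0 and 158 CPM), which escape X inactivation, were separated higher, and Ahnak KO replicate 1, the library with Xist, was the highest for both.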
